A study of Drosophila melanogaster with 3 samples.

Results

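The JAK/STAT and JNK cascades are a pair of signalling pathways that larval tissues use in growth, patterning and the response to damage. The genes described here are 10 listed members of these pathways, taken from 13968 protein-coding genes: upd1, dome, hop, Stat92E and Socs36E of JAK/STAT, and hep, bsk, Jra, kay and puc of JNK. For each gene, binding of a tagged Fru protein was read from the gene span in the Ensembl annotation plus 5 kb on each side, called its window. All 10 symbols matched 1 annotated gene each, and the list was drawn up with earlier results of these data known.

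Binding was mapped by chromatin immunoprecipitation with sequencing (ChIP-seq), with an antibody against GFP, in whole Drosophila melanogaster larvae of the third instar, in the wandering stage, with males and females pooled. The animals came from the strain fru-MiMIC-GFP, in which an eGFP exon inserted in an intron of fru makes the endogenous gene encode a Fru-GFP fusion. The Fru proteins are BTB zinc-finger transcription factors studied mostly in the nervous system of males. All 3 biological replicates form 1 group and carry the tag, so there was no contrast between conditions and no p-value is given. Sexes and tissues were mixed, so a region cannot be traced to a sex or a cell type, and strong binding in few cells cannot be told apart from weak binding in many. Which Fru isoforms carry the tag is not given in the labels, and no sample without the tag was analysed here.

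In JAK/STAT signalling a secreted Unpaired ligand such as Upd1 binds the receptor Domeless (dome). The receptor activates the Janus kinase Hopscotch (hop), which phosphorylates the transcription factor Stat92E, and Stat92E induces Socs36E, an inhibitor that feeds back on the receptor and kinase. In JNK signalling the kinase Hemipterous (hep) phosphorylates the JNK Basket (bsk), which acts through the AP-1 proteins Jun (Jra) and Fos (kay). AP-1 induces puckered (puc), a phosphatase that switches Basket off, so each cascade has an inhibitor among its own target genes. In imaginal discs both are known for wound healing and regeneration, and puc and Socs36E are widely used as their reporters.

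The authors' pooled list holds 30000 candidate regions, made from the reads of all replicates. It was the input for a test of the irreproducible discovery rate (IDR), which compares how regions rank in replicates. The authors' thresholded list holds the 8996 regions that passed. Of these, 52 had their summit, the position of highest signal, in the window of 1 of the 10 genes. Each region carries a signal value, which is a score set by the authors with no fixed range. The place of a region is its rank by that value in its list, with 1 for the strongest. A region was taken as present in a replicate when a summit lay within 100 bp among the 8996 strongest regions of that replicate's own list of 30000. In the members' windows, every pooled region down to place 8735 passed and none from place 9310 on did. Passing there followed the place in the pooled list, so a region that passed need not rank alike in the replicates. Of the 52, 26 were present in all 3 replicates, 19 in 2 and 7 in 1.

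The 61 bases centred on some of these summits are shown first, with 101 bases for 3 windows that hold a STAT word. They were read from the NCBI reference sequence of dm6 on the + strand, in lower case. Capitals mark 4 searched words, namely the STAT word TTCNNNGAA, the AP-1 word TGANTCA, the GAGA word GAGAG and the DRE word TATCGATA. GAGAG was searched on both strands, and overlapping copies appear as 1 run. The other 3 words read the same on both strands. The first 4 sequences lie at summits within 500 bp of a transcription start site (TSS) of a member. The next 3 are the strongest summits of Socs36E, puc and kay, and the last 3 carry the STAT word.
dome promoter (chrX:19683526-19683586): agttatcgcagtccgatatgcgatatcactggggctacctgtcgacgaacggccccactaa
hep promoter (chrX:13089991-13090051): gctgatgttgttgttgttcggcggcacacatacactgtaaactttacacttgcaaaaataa
puc second promoter (chr3R:8106502-8106562): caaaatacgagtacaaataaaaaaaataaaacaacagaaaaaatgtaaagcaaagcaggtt
kay promoter within the gene (chr3R:29782617-29782677): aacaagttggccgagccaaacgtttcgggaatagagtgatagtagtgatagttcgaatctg
Socs36E intron 1 (chr2L:18145456-18145516): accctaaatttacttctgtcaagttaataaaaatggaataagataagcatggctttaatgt
puc intron 3 (chr3R:8114085-8114145): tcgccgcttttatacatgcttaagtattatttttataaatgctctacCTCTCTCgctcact
kay upstream (chr3R:29763349-29763409): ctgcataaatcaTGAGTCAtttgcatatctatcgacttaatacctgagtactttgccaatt
Socs36E intron 1 with STAT word (chr2L:18148968-18149068): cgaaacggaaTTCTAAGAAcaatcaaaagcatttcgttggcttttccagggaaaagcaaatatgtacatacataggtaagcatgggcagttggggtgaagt
CG2200 promoter upstream of hep (chrX:13094312-13094412): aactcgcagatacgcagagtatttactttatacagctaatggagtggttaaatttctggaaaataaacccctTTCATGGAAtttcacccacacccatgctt
puc intron 3 with STAT word (chr3R:8116112-8116212): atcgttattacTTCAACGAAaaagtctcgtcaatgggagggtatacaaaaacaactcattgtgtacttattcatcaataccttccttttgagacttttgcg

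By count, Fru-GFP summits were plentiful around the feedback inhibitors puc and Socs36E and the Fos gene kay, and numbered 3 or fewer around the ligand, receptor and kinase genes. In the window of puc lay 14 thresholded summits, in that of kay 12, of Socs36E 10 and of Stat92E 7. Jra had 4 and hep 3, while dome and hop had 1 each and upd1 and bsk had none. The first 4 genes held 43 of the 52 summits (82.7%). The members' windows together span 210686 bp and held 2.47 thresholded summits per 10 kb, against 0.672 per 10 kb of the whole genome. Over gene windows the mean was 0.822 per 10 kb and the median 0.650. Windows differ in length, from 12077 bp for Jra to 38119 bp for kay. Per 10 kb, puc held 5.19 summits, Socs36E 4.21, Jra 3.31, kay 3.15 and Stat92E 2.59. The values for hep, hop and dome were 1.41, 0.582 and 0.573.

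**Figure D1:**
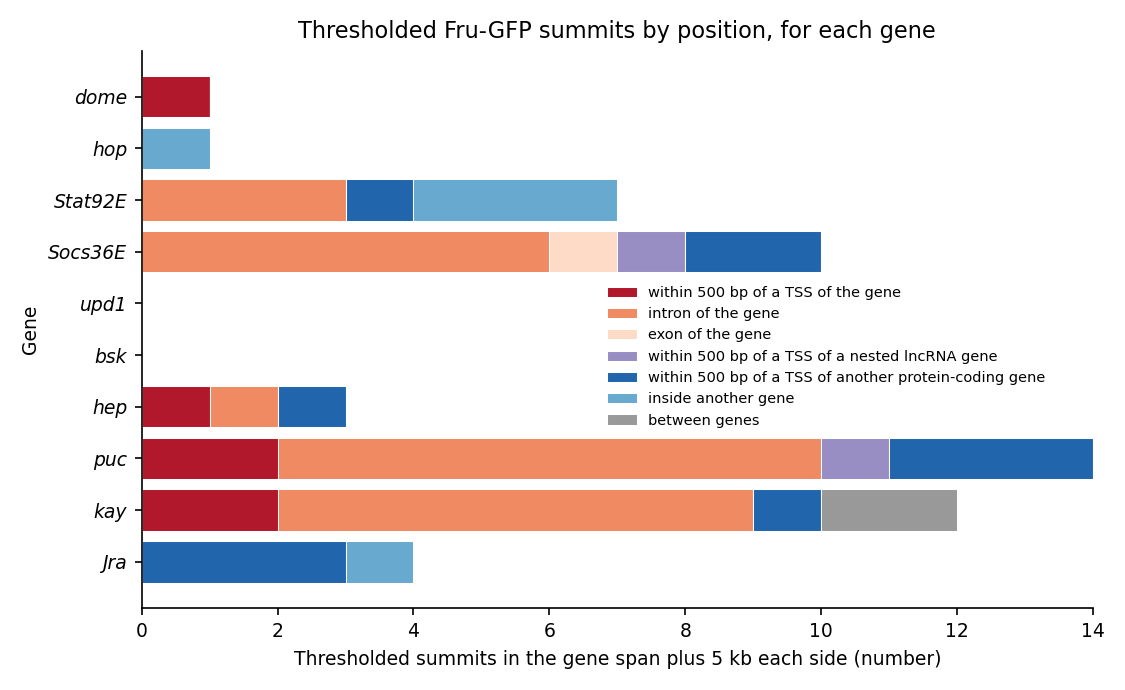
Number of thresholded Fru-GFP summits (horizontal axis) in the window of each of the 10 genes (vertical axis), with colours for where the summit lies. The bars of puc, kay and Socs36E reach 14, 12 and 10 and are mostly intronic, those of upd1 and bsk are empty, and all 4 summits of Jra lie at another gene.

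At least 1 thresholded summit lay in the window of 8 of the 10 members, against 56% of protein-coding genes. Among genes of at least 10 kb, which have larger windows, this was 5 of 5 members and 77.1% of genes. At least 10 summits, the number at Socs36E, were found for 3 of the 10 members, against 0.916% of genes, and for 3 of the 5 long members, against 6.35% of long genes. That number was set by the members' own counts, so these shares describe where the members stand and test nothing. As many summits as puc were seen at 0.358% of genes, as kay at 0.580% and as Stat92E at 2.36%. Jra (11.1%), hep (18.9%), and dome and hop (56.0%) were closer to the bulk of genes. Among genes of at least 10 kb alone the shares were larger, with 2.52% for puc, 4.08% for kay, 13.9% for Stat92E and 45.1% for hep. The median window held 3.5 summits among the members and 1 among all protein-coding genes.

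**Figure D2:**
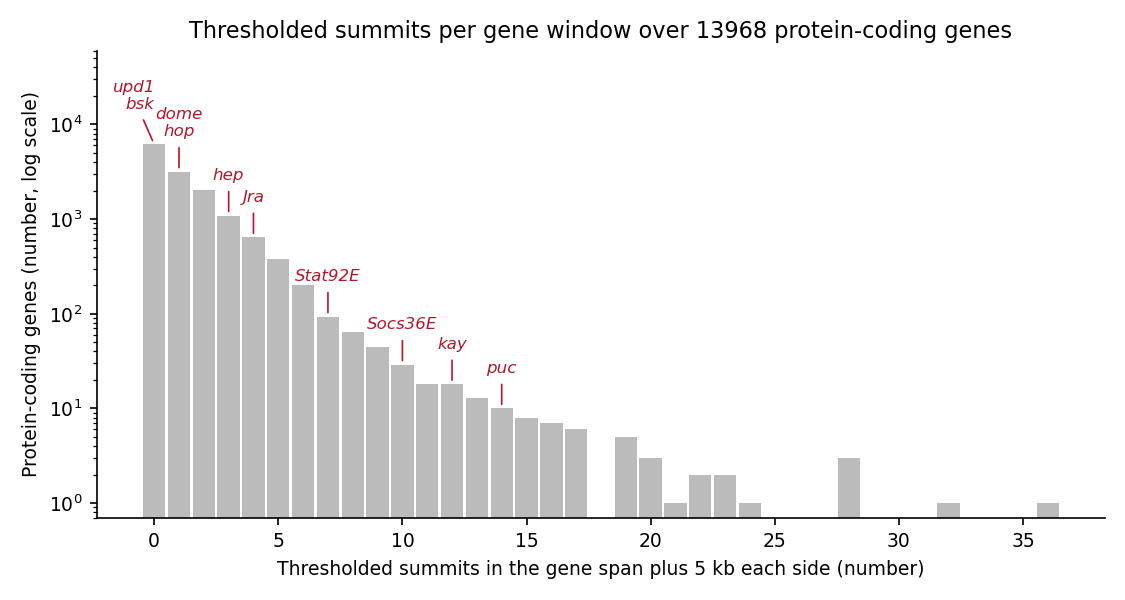
Number of protein-coding genes (vertical axis, log scale) by number of thresholded summits in the window (horizontal axis), with the 10 members named above their bar. The members run from 0 (upd1, bsk) to 14 (puc), with Stat92E, Socs36E, kay and puc in the thin right-hand part, which ends at 36 summits.

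The pooled list held 114 regions in the members' windows, of which 52 passed the threshold (45.6%), against 30% of the pooled list. It held no region at all for 1 of the 10 members, bsk, against 23.9% of genes. In the replicates' own lists, 47, 49 and 47 of the 8996 strongest regions of replicates 1, 2 and 3 fell in the members' windows, a mean of 47.7 ± 1.15 (SD, n = 3). The total in the windows was thus nearly equal in the 3 replicates, unlike the number of members with a promoter region. Per gene the counts were 12, 15 and 12 for puc, 12, 9 and 13 for kay, 8, 8 and 9 for Socs36E, and 7, 7 and 5 for Stat92E. Puc or kay held the most in every replicate, by counts that take no account of window length.

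Of the 52 summits, 6 lay within 500 bp of a TSS of the member itself, 25 in its introns and 1 in an exon. A further 11 lay within 500 bp of a TSS of another protein-coding gene, 2 at a TSS of a noncoding gene nested in a member's intron, 5 inside another gene and 2 between genes. Counting TSSs of any gene, 19 of the 52 (36.5%) were at a TSS, against 40.1% of all thresholded summits. A TSS summit was found for 4 of the 10 members, namely dome, hep, puc and kay (40%, 95% Wilson interval 16.8 to 68.7%), against 24.6% of genes. Among the 8996 strongest regions of replicates 1, 2 and 3, members with a region within 500 bp of a TSS numbered 3, 7 and 4 (mean 4.67 ± 2.08, SD, n = 3). Replicate 2 had the most, with hop, Stat92E and Socs36E beside the 4 named, and Jra was counted in replicate 1 alone. Neither dome nor hep was counted in replicate 1. The share of all genes was not worked out for the replicate lists, so these counts have no background beside them. In the thresholded list, among genes of at least 10 kb, this was 3 of 5 members, against 42% of genes, and among shorter genes 1 of 5, against 21.7%. By alternative promoter, with TSSs of a gene within 100 bp taken as 1, it was 6 of the members' 20 (30%), against 23.5% of 18945. Each of these shares rests on few genes, and none was tested.

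The ligand gene upd1 (FBgn0004956, chrX:18305354-18309291, 3 alternative promoters) had no thresholded summit. Its window held 4 pooled regions, with signal values of at most 40.4, and the weakest stood at place 29548. One of them lay 22 bp from a TSS, at place 24734 with a signal value of 31.7, and had no counterpart in any replicate list. The smallest signal value in the thresholded list was 104.5. The relatives upd2 and upd3, which encode the other Unpaired ligands, had 1 and 3 summits in their windows and none within 500 bp of a TSS.

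The receptor gene dome (FBgn0043903, chrX:19676061-19683518, 1 promoter) had 1 summit, and it lay at the TSS. It stood 38 bp upstream at 19683556, with a signal value of 147.8 at place 6320. Its places in replicates 1, 2 and 3 were 9087, 4917 and 7572, so in replicate 1 it fell just outside the 8996 strongest. The TSS of Ubqn, the ubiquilin gene, lies 252 bp from the same summit, so the region lies at both promoters and was not assigned to either. The related receptor-like gene et had 2 summits in its window, the stronger at place 34, and none within 500 bp of its own TSSs.

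The kinase gene hop (FBgn0004864, chrX:11360930-11368098, 1 promoter) had no pooled region at its TSS. Its single summit, at 11371061, lay 2963 bp upstream and inside dlg1, the gene of the polarity scaffold Discs large, at place 6703. Its places were 9479, 10408 and 5254 in replicates 1, 2 and 3, so it was among the strongest 8996 in replicate 3 alone. At the TSS itself, the list of replicate 2 held a region 80 bp from the hop TSS at place 2821 and another 281 bp away at place 6203. Neither had a counterpart in replicates 1 and 3, and the nearest pooled summits were 2883 and 2682 bp away, so the hop promoter was listed in 1 of 3 replicates.

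The transcription factor gene Stat92E (FBgn0016917, chr3R:20535323-20552311, 16989 bp) has 2 alternative promoters, used by 6 and 5 annotated transcripts, and neither held a thresholded summit. The nearest was 995 bp downstream of the inner TSS at 20550112, at a position that is intronic in all 11 transcripts, in introns of 8628 to 10527 bp. It had a signal value of 308.5 and place 2568, with places 7510, 4627 and 1257 in replicates 1, 2 and 3. Further along, also intronic in all 11, stood weaker summits at places 7004 and 8735. A pooled region at the inner promoter, place 14157, did not pass.

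The strongest summit in the Stat92E window lay outside the gene, 4112 bp upstream at 20556423, with a signal value of 311.3 and place 2527. It was found in all 3 replicates, at places 2442, 3249 and 2359. It lies with 2 others, at places 3609 and 7201, inside DPCoAC, a mitochondrial dephospho-CoA transporter gene whose TSSs are nearer than those of Stat92E. The last, at place 5332, was 21 bp from the TSS of the metallothionein gene MtnE. By gene span alone Stat92E therefore kept 3 of its 7 summits.

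The inhibitor gene Socs36E (FBgn0041184, chr2L:18138675-18152417, 13743 bp) carried its strong signal in the first intron. This intron, of 9459 bp in 2 transcripts and 9628 bp in the other, held 6 summits. The strongest, at 18145486, had a signal value of 837.1 and place 513. Its places were 519, 475 and 546 in replicates 1, 2 and 3 (mean 513 ± 35.8, SD, n = 3), the smallest SD of place among the leading summits of the 8 members that have one. It lies 388 bp from the TSS of lncRNA:CR44478, a noncoding gene nested in the intron. In the same intron the summit at 18150516, 1901 bp from the Socs36E TSS, stood at place 1653 and in replicates 1, 2 and 3 at 1989, 1234 and 1860.

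The single Socs36E promoter had no thresholded summit. A pooled region 20 bp from the TSS stood at place 10629 with a signal value of 87.3. In replicates 1, 2 and 3 a region within 500 bp of the TSS stood at places 15325, 8634 and 10409, so only replicate 2 had it among its strongest 8996. Outside the gene, summits at places 6031 and 5995 lay 33 bp from the TSS of kel, the ring canal gene kelch, and 158 bp from that of CG17681. The intron of 493 bp near the 3' end held a summit at place 2685, with no counterpart within 100 bp in replicate 2, though that replicate had one 200 bp away at place 3551.

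**Figure D3:**
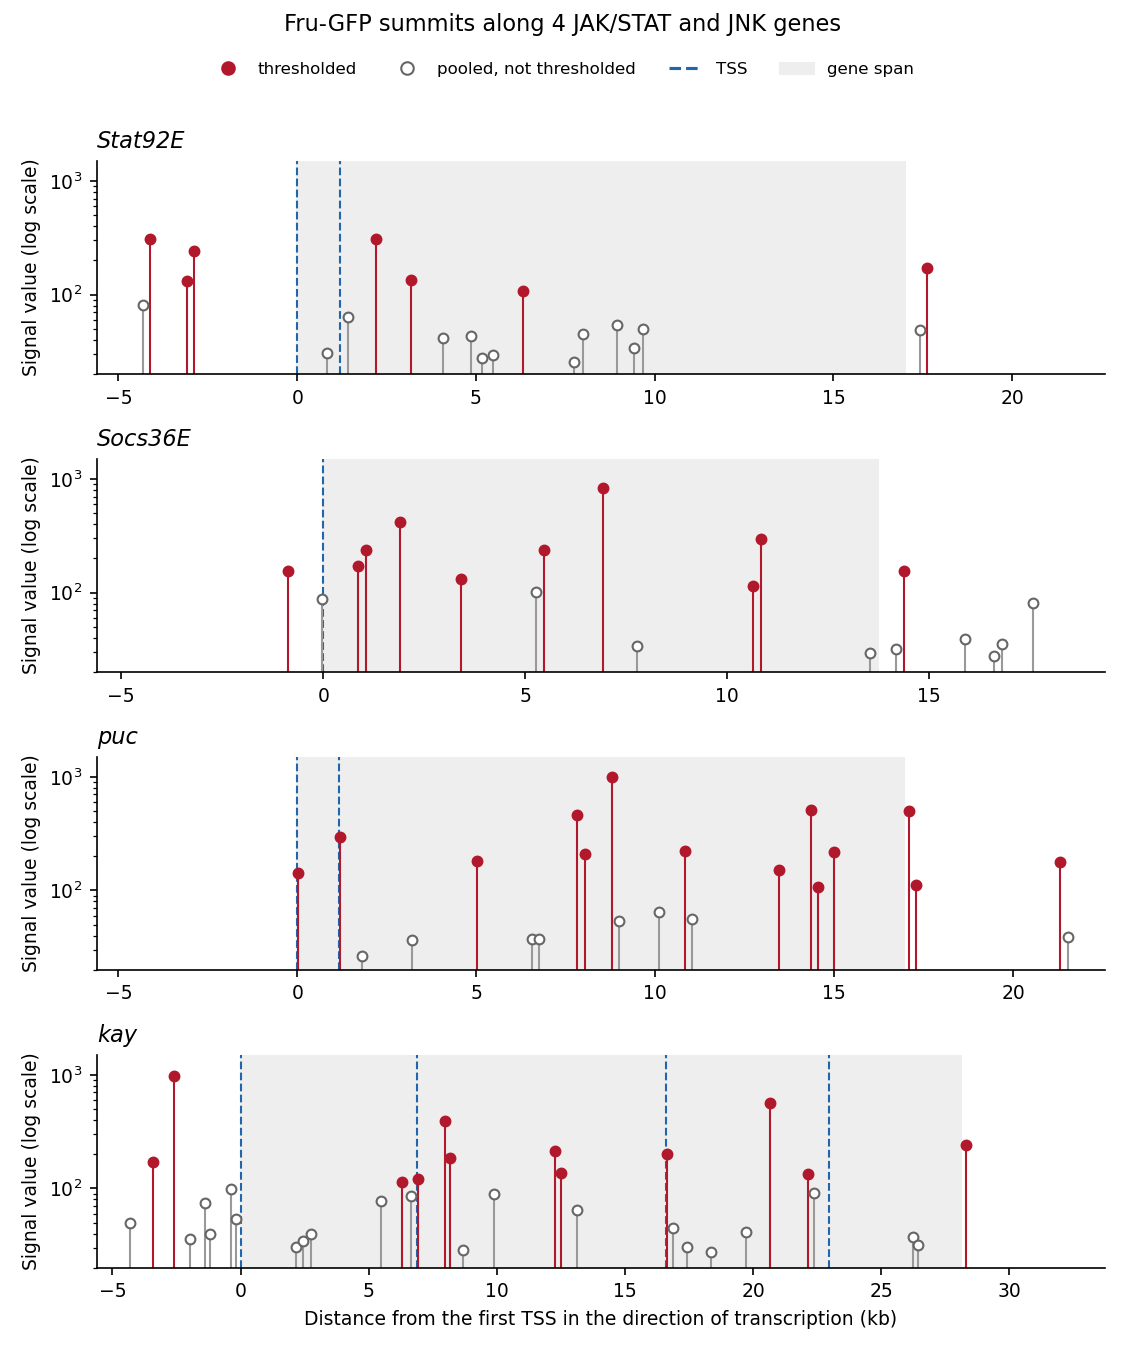
Authors' signal value of each pooled region (vertical axes, log scale) by distance of its summit from the first TSS in the direction of transcription (horizontal axes, kb), for Stat92E, Socs36E, puc and kay. Filled red points passed the threshold, open points did not, dashed lines are TSSs and grey marks the gene span; the tallest points of Socs36E and puc (837.1 and 996.1) stand inside the gene and that of kay (974.6) upstream of it.

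Upstream in JNK signalling, the kinase gene hep (FBgn0010303, chrX:13079205-13090434, 11230 bp) had 3 summits, and each was among the strongest 8996 of every replicate. Its promoter summit lay 413 bp downstream of the single TSS, in an exon, with a signal value of 156.6 and place 5969. Its places were 6801, 8457 and 5700 in replicates 1, 2 and 3. The replicate 1 match, at place 6801, lay more than 500 bp from the TSS. Within 500 bp of it, the strongest region of replicate 1 stood at place 17769, outside the strongest 8996. A stronger hep summit, 2842 bp downstream in an intron shared by all 7 transcripts, had a signal value of 446.5 and place 1499, with 1285, 959 and 2096 in the replicates. The strongest, with a signal value of 600.9 and place 933 (832, 661 and 1459), lay 3928 bp upstream of hep and 63 bp from the TSS of CG2200.

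The JNK gene bsk (FBgn0000229, chr2L:10247502-10250501, 3 alternative promoters) had no pooled region in its window of 13000 bp, and none of the strongest 8996 regions of any replicate fell there. It was the member with the least signal. The depth of the libraries is unknown, so a weak region below the end of these lists would not be seen.

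The phosphatase gene puc (FBgn0243512, chr3R:8105332-8122294, 16963 bp) had summits at both of its promoters and 9 further along in its introns, 1 of them at the TSS of a nested noncoding gene. The first promoter held one 11 bp from the TSS, with a signal value of 143.2 and place 6542. Its places were 5304, 4910 and 10106 in replicates 1, 2 and 3, the last outside the strongest 8996. The second promoter, downstream of it, held one 44 bp from the TSS, with a signal value of 298.5 and place 2684. Its places of 4372, 1911 and 2667 were within the strongest 8996 in every replicate, so the second promoter had the stronger summit, and the spread of places was similar in proportion at both.

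Intron 2 of puc held 1 of the 9, at place 5090, and intron 3, 9210 bp long and common to both transcripts, held 8. The strongest in the window, at 8114115, had a signal value of 996.1 and place 351. In replicates 1, 2 and 3 it stood at 334, 280 and 563 (mean 392 ± 150, SD, n = 3), and 112 bp away is the TSS of lncRNA:CR44331, a noncoding gene nested in the intron. Further 3' in that intron the summit at 8119674 had a signal value of 513.6 and place 1200, with 2127, 2116 and 666 in the replicates. The summit at 8113156, place 1428, had no counterpart within 100 bp in replicate 3, which had one at the neighbouring summit 202 bp away, at place 1823. Thus the strongest summits inside puc lay far from its own TSSs, 7627 and 13186 bp from the nearer one.

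Beyond the 3' end of puc, summits at places 1276 and 8473 lay 300 and 94 bp from the TSS of CG7878, and one at place 5194 lay 50 bp from that of Arl8, a lysosomal small GTPase gene. These 3 are within 500 bp of the TSS of another gene, and 11 of the 14 summits lay in the puc span. By either count puc was the member with the most.

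The Fos gene kay (FBgn0001297, chr3R:29765995-29794113, 28119 bp) has 4 alternative promoters, and 2 of them held a summit. The promoter at 29782609 had one 38 bp away, with a signal value of 200.5 and place 4525. It stood at 4429, 4736 and 5275 in replicates 1, 2 and 3. The promoter at 29772892 had a weaker one 35 bp away, at place 7763, with places 8833 and 3269 in replicates 1 and 2. Replicate 3 had no summit within 100 bp of it but had one 228 bp upstream of that TSS, at place 6958, so each replicate had a region at this promoter. The first promoter had a pooled region at place 9452 with a signal value of 99.1, just short of the threshold, and the last had none. The promoters of kay thus differed in this readout, and the 2 with a summit serve 3 of the 5 annotated transcripts.

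The strongest summit in the kay window lay between genes, 2616 bp upstream of the first TSS at 29763379. It had a signal value of 974.6 and place 372, with 258, 363 and 555 in replicates 1, 2 and 3 (mean 392 ± 151, SD, n = 3). Its 61 bases carry the AP-1 word TGAGTCA with its centre 15 bp from the summit. Within the gene, the summit at 29786643 was intronic in 4 of 5 transcripts, whose introns there are 8245 to 23805 bp long, and had a signal value of 564.4 and place 1038. It stood at 769, 1369 and 1154 (mean 1097 ± 304, SD, n = 3). Another, at 29773959 and intronic in 3 of 5 transcripts, had place 1823 and 956, 2532 and 2374 in the replicates. Each of these was among the strongest 8996 of all 3 replicates. Summits near lncRNA:CR46110 and fig, which start within the kay span, at places 4972, 4205 and 6916, were closer to a TSS of those genes than to one of kay. Past the 3' end, the summit at place 3564 lay 284 bp from the TSS of sro, a gene of ecdysone synthesis.

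The Jun gene Jra (FBgn0001291, chr2R:10096480-10098556, 2077 bp) had 4 summits in its window and none in its own span. They lay beyond its 3' end at 14-3-3zeta, which encodes a phosphoserine-binding adaptor, at distances of 16, 172, 27 and 789 bp from its TSSs. The last, inside 14-3-3zeta, was the strongest, with a signal value of 632.2 and place 859, and 1017, 422 and 1393 in replicates 1, 2 and 3 (mean 944 ± 490, SD, n = 3). At Jra itself a pooled region 80 bp from a TSS had a signal value of 43.9 and place 19206. It stood at 8980 in replicate 1 and 18488 in replicate 3, with no counterpart within 100 bp in replicate 2. The AP-1 partners therefore differed, with 9 summits in the span of kay and 0 in that of Jra, though kay is also far longer.

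**Figure D4:**
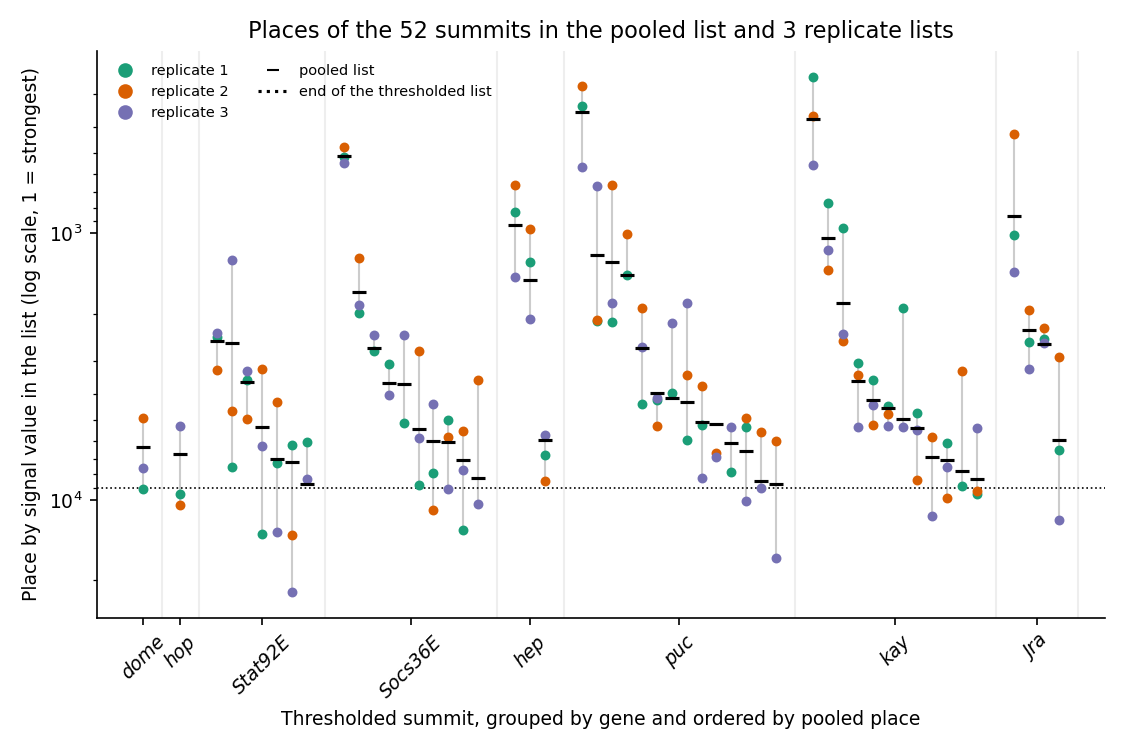
Place by signal value (vertical axis, log scale, strongest at the top) of the 52 thresholded summits, grouped by gene along the horizontal axis, in the pooled list (black bars) and in replicates 1, 2 and 3 (coloured points). The leading summits of puc, kay and Socs36E (places 351, 372 and 513) keep places of 563 or better in every replicate, and many weaker ones straddle the dotted line at 8996, the end of the thresholded list.

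The 52 summits were of ordinary strength for the thresholded list. Their median signal value was 205, against 201 for all 8996, and their median place 4402.5, against 4498.5. Present in all 3 replicates were 26 of the 52 (50%), against 58% of the thresholded list, while 19 were present in 2 replicates and 7 in 1. With summits matched within 250 bp, 41 of 52 (78.8%) were present in all 3, against 69.8%. The order of these shares thus turned with the matching distance, and no difference from the list can be read from them. In the whole lists of 30000 regions, 38 were found in all 3 replicates and 14 in 2. Replicates 1, 2 and 3 held 42, 40 and 41 of the 52 among their strongest 8996 (mean 41 ± 1, SD, n = 3). The 30 summits present in both replicates 2 and 3 were the fewest for any pair, and replicates 1 and 2 shared 32 and replicates 1 and 3 shared 35.

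Some summits came in close pairs. Of the 52, 18 (34.6%) had another thresholded summit within 250 bp, against 19.1% of the list. They formed 9 pairs, 3 at puc, 2 each at Socs36E and kay, and 1 each at Stat92E and Jra. The spacing was 199 to 206 bp in all 9, and in all 9 the summit of lower coordinate had the higher signal value, whichever strand the gene is on. In the whole thresholded list no summits were closer than 199 bp. The lower coordinate was the stronger in 851 of the 859 pairs within 250 bp (99.1%), with a median spacing of 203 bp. How these pairs arose was not tested, and within a pair 1 broad site and 2 sites cannot be told apart. With overlapping regions merged, the 52 summits formed 43 stretches, with 11 at puc, 10 at kay, 8 at Socs36E and 6 at Stat92E. The summit in an exon of Socs36E, at place 8239, was the weaker of such a pair.

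The threshold fell between near-equal members of the list. Just inside stood a Stat92E intron summit with a signal value of 107.9 at place 8735 and puc summits with 108.1 at place 8717 and 111.3 at place 8473. Just outside stood a Socs36E region with 100.6 at place 9310 and kay regions with 99.1 at place 9452 and 90.9 at place 10263. These values differ by little, so counts per gene near this line are soft.

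The words of the pathways' own transcription factors were rare under the summits, as they were over the whole thresholded list. The STAT word lay within 50 bp of 3 of the 52 summits (5.77%, 95% Wilson interval 1.98 to 15.6%), against 3.08% of all thresholded summits and 2.69% of pooled regions that did not pass. They were the CG2200 promoter summit upstream of hep, an intron 1 summit of Socs36E and an intron 3 summit of puc, with the word centred 26, 36 and 35 bp from the summit. At 100 bp each side the STAT share was again 5.77%, against 5.55% of the list and 5.43% of regions that did not pass. Within 50 bp, the AP-1 word lay at 1 summit (1.92%), the upstream kay summit, against 2.49%. The GAGA word, bound by the GAGA factor, lay at 5 (9.62%), against 12.6%, and the DRE word, bound by Dref, at 0, against 1.21%. Each interval for the members spans the share of the whole list, and a word match describes letters, not bound protein. The 101 bases around the members' summits had a median GC content of 40.6%, against 34.7% over the list.

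Among 39 other genes linked to the pathways, 22 (56.4%) had a TSS summit, which 24.6% of all protein-coding genes have. A summit in the window was found for 35, against 56% of all genes and 77.1% of those of at least 10 kb. By length, 13 of the 19 genes of at least 10 kb had a TSS summit, where the background was 42%, and 9 of the 20 shorter genes, where it was 21.7%. The list was chosen with earlier results of these data known and describes only these genes. Among genes of at least 10 kb, 3 of 4 JAK/STAT and 10 of 15 JNK genes had a TSS summit, and among shorter ones 2 of 7 and 7 of 13; the pathways were not compared by a test. On the JAK/STAT side the negative regulators Socs16D (place 5406), the phosphatase gene Ptp61F (6156) and the repressor gene ken (3895) had one, and Socs44A and Su(var)2-10 did not. The STAT-linked genes chinmo (6789) and wdp (7361) had one, and zfh1 did not.

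On the JNK side the TNF ligand gene egr had a summit at place 1615 and its receptor gene grnd at 5841, while the receptor gene wgn had none at a TSS. Both adaptor genes had one, Traf4 at 4360 and Traf6 at 1819. Of 6 upstream kinase genes 3 had one, with Mkk4, the other JNK kinase gene beside hep, at place 188 (110, 188 and 297 in replicates 1, 2 and 3), wnd at 3751 and Tak1 at 5423. Mkk4 therefore stood far above hep, whose own promoter summit was at place 5969. The small GTPase genes Rac2 (3517) and Rho1 (4094) had one, and Rac1, Cdc42 and the scaffold gene Cka did not.

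All 5 JNK-linked transcription factor genes on that list had a TSS summit. Each is longer than 10 kb, where 42% of genes have one, and the list was chosen with earlier results known. The strongest of the 22 was at Atf3, which encodes a bZIP protein, at place 92 (60, 104 and 164 in replicates 1, 2 and 3). The others were CrebA at 2655, foxo at 3162, the ETS repressor gene aop at 4016 and the ETS activator gene pnt at 7542. Of 7 JNK target genes 3 had one, with the cell death gene hid at place 266 (215, 297 and 292), the filamin gene cher at 3572 and the protease gene Mmp1 at 7384. The targets scaf, Ilp8, rpr and dpp had none at a TSS, and Ilp8 had no pooled region in its window. The highest promoter places thus fell at Atf3, Mkk4 and hid, and none of the 10 members had a promoter summit stronger than the one of puc at place 2684. Stronger than any of these were summits in the windows of et (place 34), Rac1 (45) and Su(var)2-10 (57), none within 500 bp of a TSS of those genes. The summits of Atf3, Mkk4 and hid lay 240, 161 and 299 bp from the TSS and outside the gene span. Neighbouring TSSs were not described for the wider list, so whether its summits also lie at another gene's promoter is not known here.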

How the data were processed

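Fru-GFP ChIP-seq lists on dm6 were analysed for 3 replicates in 1 group. The signal value is a score made by the authors from ChIP and control alignments, per the notes deposited for each sample. Each replicate has a list of 30000 regions, a further 30000 come from the pooled reads, and the authors thresholded these by IDR. Fragments were 200 to 800 bp after sonication, per the labels. The aligner, peak caller, settings and IDR cutoff were not given in the sources used here. Lists on dm3 were not used.

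Positions are 1-based summits. Genes and TSSs came from Ensembl release 115 (BDGP6.54, dm6 coordinates), without pseudogenes and transposable elements, and sequences from the NCBI genome of dm6. A promoter is 500 bp on each side of a TSS. Signal values were used only within 1 list, to rank and describe its regions. No read counts were used, so depth is unknown. Wilson intervals cover the sampling of genes or summits only. They treat these as independent draws, though the genes were a chosen list and some summits came in close pairs. Python 3.11.15, numpy 2.4.6, pandas 2.3.3, scipy 1.17.1 and matplotlib 3.10.9 were used, and the counting was checked on simulated data.

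The members, the wider list and the words were chosen with earlier results of these data known. All members and every wider gene with a TSS summit are named, with neighbours whose TSS is nearer to a summit; the close pairs and the threshold neighbours were singled out after their values were seen. No column of per-sample values was left unmapped.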

Additional observations from a re-analysis of the deposited data

How the results depend on the processing

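Of 60 values recomputed under another setting, 39 stayed within 1.5 times the reported count (for words, within its Wilson interval) and 21 moved further. Taking the gene span alone left 5 members with a summit, 33 thresholded summits and 74 pooled regions. The strongest 4498 regions left 1 member with a promoter summit (puc), 26 summits, 1 alternative promoter, 14 intronic summits and 14 wider genes. Summits present in all 3 replicates numbered 26, with 3 alternative promoters, 11 intronic summits and 14 wider genes. Asking for presence in both remaining replicates gave 30 to 35 summits, 12 to 19 intronic summits and 3 to 5 alternative promoters. The lowest counts of summits and introns came without replicate 1 (30 and 12), followed by replicate 3 (32 and 13), and the lowest of promoters without replicate 2 (3). The replicate set aside still contributed to the pooled list, so this is a stricter filter and not an analysis without its reads. Matching within 250 bp gave 41 summits in all 3 replicates, and overlap by 1 bp gave 42. The GAGA share was 25% at 100 bp each side, against 25.5% of the list. In alternatives chosen after seeing the data, any pooled region at a TSS gave 8 members, merging gave 43 stretches, leaving out summits at TSSs of other genes gave 38, and leaving out those at or inside other protein-coding genes gave 35. Shares of all genes are not given for these other settings, so the counts of members and of wider genes have no background here. No paired analysis was possible because there is 1 group.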
